A study of Mus musculus with 9 samples.

Results

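The respiratory chain subunits described here are the proteins of complexes I to V that are encoded in the nucleus. Members were taken by gene symbol: probe sets with a single symbol that begins with Ndufa (Ndufaf assembly factors left out), Ndufb, Ndufc, Ndufs, Ndufv, Sdha to Sdhd, Uqcr, Cyc1, Cox4 to Cox8 or Atp5, with the brightest probe set kept where a gene had several. This gave 83 genes of the 19938 that the array measured: 34 of complex I, 4 of complex II, 9 of complex III, 19 of complex IV and 17 of complex V. Ndufa4 and its relative Ndufa4l2 carry a complex I name and were counted with complex IV, where the protein is now placed.

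The respiratory chain sits in the inner mitochondrial membrane. Complexes I and II pass electrons from NADH and succinate to ubiquinone, complex III passes them on to cytochrome c, complex IV hands them to oxygen, and complex V uses the proton gradient built on the way to make ATP. A few core subunits come from mitochondrial DNA, whereas all others are transcribed in the nucleus, translated in the cytosol and imported. Carcinoma cells differ widely in how far they use this pathway beside glycolysis.

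Expression was measured on 9 arrays from cultured cells, 3 for each of 3 lines. 4T1 is a mouse mammary carcinoma line from BALB/c mice and was untreated. MR20 cells were the 4T1 cells that outlived methotrexate, an antimetabolite that blocks dihydrofolate reductase, at a dose labelled 20 ug/ml (the study's text gives this figure in ng/ml). DR500 cells were the 4T1 cells that outlived a dose raised stepwise to 500 ng/ml of doxorubicin, an anthracycline, according to the treatment protocol and the study's text, although other label fields of these samples name methotrexate. RNA was taken after growth without drug, from triplicate wells, so that p-values may cover only the spread between wells of a line. Each selected line is the outgrowth of surviving colonies from a single selection. Both are compared with the same 3 arrays of 4T1, so their differences from 4T1 share an error. The extraction protocol of these 4T1 arrays names them together with MR20 alone, while that of DR500 names 4T1 wells (WTR-) of its own. Whether the 4T1 arrays used here were handled with the DR500 arrays is not given in the sources used here, and this bears on every DR500 difference from 4T1. Differences in array processing between lines cannot be told apart from the lines.

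All values below are log2 expression after RMA (background correction, quantile normalization and summary of the probes of a gene), and a difference of 1 is a doubling. A gene passed when limma gave an adjusted p under 0.05 over all genes. Between arrays of a line the subunit genes had a median SD of 0.065, ranging from 0.005 to 0.371. To describe the cells, markers of cell types were summed, for which the labels give no level to check against. The summed level of 10 epithelial markers was 109.0 to 109.8 on the 4T1 arrays and 112.2 to 112.6 on the MR20 arrays. It was 78.6 to 80.4 on the DR500 arrays, where 8 of the 10 had fallen. The sums of 9 fibroblast markers were 56.4 to 57.0, 55.8 to 56.4 and 62.2 to 62.8 in the same order. In DR500, 3 of these 9 rose (Fbln1 by 3.70, Pdgfra by 1.70 and Dcn by 0.56), Postn fell by 0.97 and 5 did not pass. The sums of 8 leukocyte markers were 48.4 to 49.4, 49.9 to 50.7 and 50.7 to 51.7, with large changes of opposite sign in DR500: Cd53 rose by 4.35 and Cd68 by 2.30, while Lcp1 fell by 4.79. The sums of 6 endothelial markers were 30.1 to 30.7, 30.5 to 31.0 and 30.5 to 31.3, and those of 6 adipocyte and muscle markers 35.9 to 37.0, 36.9 to 37.8 and 37.2 to 38.5. Their part in the results below was not tested. In bulk RNA, fewer cells of a kind and less RNA per cell cannot be told apart.

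Subunit transcripts were more often lower than higher in both selected lines, by small amounts. In MR20, 26 of 83 subunits fell and 6 rose against 4T1, where 17.1% of all genes fell and 15.4% rose. In DR500, 44 of 83 fell and 7 rose, with 21.3% of all genes lower and 20.2% higher. No subunit moved beyond 2-fold in any comparison, which 1.08% (lower) and 1.41% (higher) of all genes did in MR20 and 3.09% and 2.47% in DR500. Subunit differences ranged from -0.80 to 0.31 in MR20 and from -0.84 to 0.54 in DR500. All 3 arrays of MR20 lay below all 3 of 4T1 for 33 subunits (23.8% of all genes) and above them for 13 (21.4%), and those of DR500 for 49 (24.4%) and 8 (25.7%). The median difference was -0.05 in MR20 and -0.19 in DR500, beside -0.01 and 0.07 over all genes.

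Most subunits are abundant, and abundant genes pass the test more often. Among the 11288 genes whose highest value exceeded 6.74, 28.1% fell and 25.3% rose in MR20. In DR500 the shares of these genes were 35.3% and 28.9%. Of the 78 subunits above this level, 26 fell and 6 rose in MR20 (33.3% and 7.69%), and 44 fell and 6 rose in DR500 (56.4% and 7.69%). The share that fell in MR20 was thus near that of all genes above this level, whereas the share that rose was smaller. These brighter genes include the subunits. Most subunits lie well above the level, and the brighter genes were not matched to them in brightness beyond it.

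The count for DR500 depended on how arrays were scaled. In the deposited values the median over all probe sets was 6.34 to 6.38 on the 4T1 arrays. It was 6.29 to 6.33 on the MR20 arrays and 6.24 to 6.36 on the DR500 arrays. With quantile normalization repeated over all probe sets, 35 subunits were lower and 13 higher. With each array centred on its median, 30 were lower and 12 higher. The lower genes thus made up 86.3% of the subunits that passed with the deposited values and 72.9% and 71.4% under these settings. Over all genes the same share went from 51.2% to 38.2% and 38%, while the median difference of all genes went from 0.07 to 0.12 under both. In MR20, the 6 higher subunits became 2 without 4T1 replicate 1, 3 without 4T1 replicate 2 and 3 without MR20 replicate 3, whereas the number lower stayed between 23 and 26 when any array was left out.

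**Figure D1:**
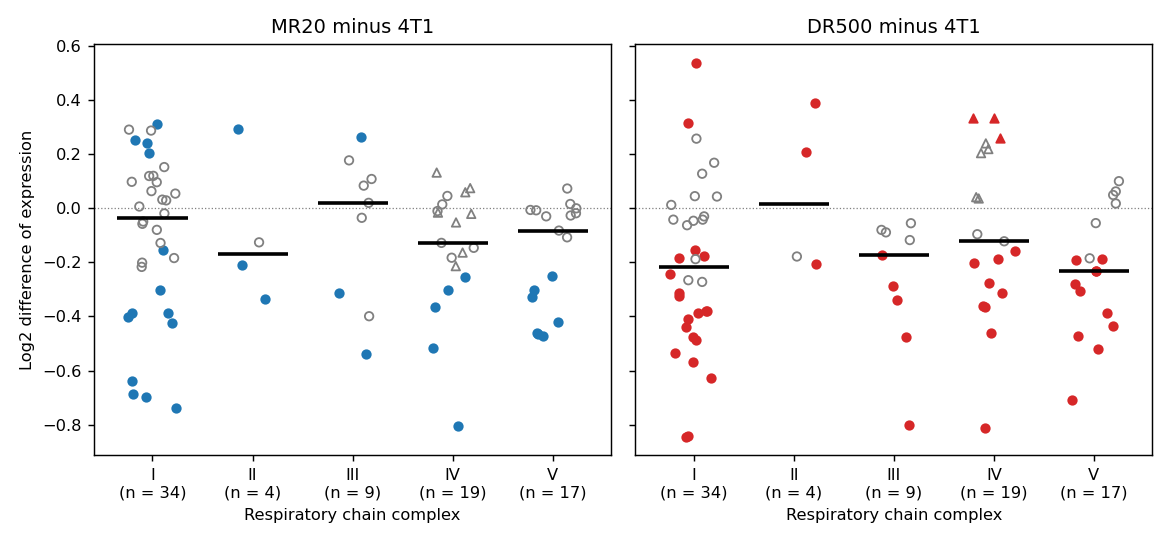
Log2 difference of each of the 83 subunit genes from 4T1 (vertical axis) by respiratory chain complex (horizontal axis) in MR20 (left) and DR500 (right). Filled symbols passed at an adjusted p under 0.05, open grey symbols did not, triangles are tissue-restricted isoforms and bars are medians of a complex: in DR500 the medians of complexes I, III, IV and V lie between -0.23 and -0.12, and that of complex II at 0.01.

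Of the 83 subunits, 22 fell in both lines, which 9.61% of all genes did. Abundant genes pass more often, and the share of the brighter genes that fell in both lines was not counted. A further 21 fell in DR500 and did not pass in MR20, and 3 (Ndufa11, Atp5e, Atp5o) fell in MR20 and did not pass in DR500. Sdha alone rose in both. Ndufa5, Ndufa8, Ndufab1 and Uqcrb rose in MR20 only among the comparisons with 4T1, and Ndufs3, Ndufv3, Cox4i2, Cox6b2 and Cox7a1 passed as higher in DR500 only. Ndufa12 rose in MR20 and fell in DR500, Sdhc did the reverse, and 25 subunits passed in neither line. Passing in one line and not in the other does not show a difference between lines. That difference was tested directly: 28 subunits were lower in DR500 than in MR20 and 13 higher, where 20.6% and 21.2% of all genes were. None differed beyond 2-fold between the selected lines, as 3.22% (lower) and 2.87% (higher) of all genes did. The arrays of DR500 lay wholly below those of MR20 for 35 subunits (23.4% of all genes) and above them for 20 (26.4%). Among the brighter genes the shares were 34.2% and 29.3%, and of the subunits that bright 35.9% and 15.4%. With repeated quantile normalization the direct counts were 23 lower and 18 higher, so that lower genes went from 68.3% to 56.1% of the subunits that passed.

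**Figure D2:**
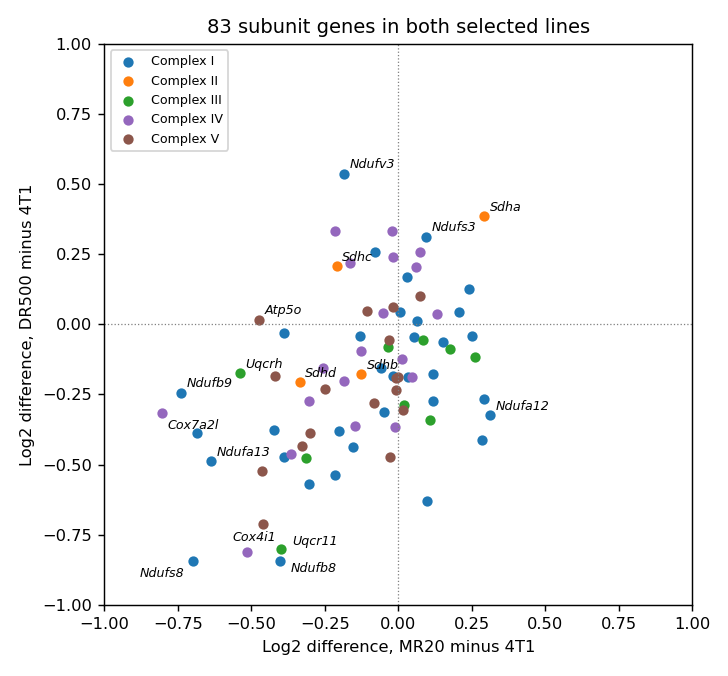
Log2 difference of each of the 83 subunit genes from 4T1 in MR20 (horizontal axis) and in DR500 (vertical axis), coloured by complex. Both axes share the 3 arrays of 4T1, so the spread along the diagonal is in part common error; most points lie below the horizontal line, Sdha lies at 0.29 and 0.39, and Ndufs8 at -0.70 and -0.84.

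Subunit genes are known to share binding motifs for a few transcription factors near their start sites, among them nuclear respiratory factor NRF1, the ETS-family factor GABP, YY1 and CREB. RefSeq promoter windows on GRCm38.p6, from 250 bases before to 50 after the start of transcription, were at hand for 67 of the 83 genes. The letters searched on both strands were GCGC, any base and TGCGC for NRF1, CCGGAAG for ETS factors, AAGATGGC for YY1 and TGACGTCA for CREB, and no sites of different motifs shared a base. The NRF1 letters occurred in 16 of the 67 windows (23.9%), against 5.19% of 27025 genes with such a window and 7.85% of the 15614 of these that the array measured. The ETS letters occurred in 25.4% of the subunit windows (13.6% of measured genes), the YY1 letters in 14.9% (3.77%) and the CREB letters in 5.97% (2.72%). At least one of the 4 was present in 40 of 67 (59.7%), against 24.1% of measured genes. Such a match describes letters in a window and shows no binding.

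The stretches before the start of 6 genes are printed because they hold these letters in genes with 4 patterns of change: Sdha, higher in both lines, Sdhd, Cox6a1 and Atp5k, lower in both, Ndufa11, lower in MR20, and Uqcr11, lower in DR500. Each is written 5′ to 3′ on the strand of the gene and ends at the last base before the start, with the matched letters in capitals. Sdha (chr13:74350241-74350350, minus strand) holds the NRF1 letters 3 times. Sdhd (chr9:50603850-50603959, minus strand) holds NRF1 and then ETS letters, the latter as CTTCCGG on the other strand. Cox6a1 (chr5:115348959-115349128, minus strand) holds NRF1 letters at 2 places, then ETS. Uqcr11 (chr10:80406822-80406931, minus strand) holds ETS, Ndufa11 (chr17:56717592-56717761, plus strand) the CREB and NRF1 letters, and Atp5k (chr5:108434400-108434509, minus strand) NRF1.
Sdha: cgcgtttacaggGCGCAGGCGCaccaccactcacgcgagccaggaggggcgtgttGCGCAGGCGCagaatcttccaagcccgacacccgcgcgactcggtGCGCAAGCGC
Sdhd: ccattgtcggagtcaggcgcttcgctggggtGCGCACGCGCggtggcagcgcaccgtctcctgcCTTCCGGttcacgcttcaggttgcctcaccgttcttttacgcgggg
Cox6a1: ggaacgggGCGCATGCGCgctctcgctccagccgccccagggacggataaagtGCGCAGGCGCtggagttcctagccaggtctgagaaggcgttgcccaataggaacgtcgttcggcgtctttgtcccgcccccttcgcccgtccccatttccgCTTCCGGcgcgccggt
Uqcr11: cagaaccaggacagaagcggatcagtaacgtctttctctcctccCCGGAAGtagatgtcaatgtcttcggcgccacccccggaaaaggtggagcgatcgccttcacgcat
Ndufa11: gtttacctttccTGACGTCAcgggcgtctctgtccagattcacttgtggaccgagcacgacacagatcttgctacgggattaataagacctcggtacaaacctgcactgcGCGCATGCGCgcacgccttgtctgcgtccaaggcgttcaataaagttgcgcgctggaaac
Atp5k: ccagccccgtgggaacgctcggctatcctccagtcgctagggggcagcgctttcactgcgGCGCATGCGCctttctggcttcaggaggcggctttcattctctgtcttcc

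Genes with and without these letters were compared as a description only. Of the 16 with NRF1 letters, 4 fell and 1 rose in DR500, with a median difference of -0.04. Of the 51 windows without them, 32 belonged to genes that fell and 4 to genes that rose, with a median of -0.23. In MR20 the counts were 5 lower and 3 higher of 16 (median -0.01) and 16 lower and 2 higher of 51 (median -0.08). The 17 genes with ETS letters had medians of -0.25 in MR20 and -0.19 in DR500, and the 50 without had -0.03 and -0.19. The 10 genes with YY1 letters had medians of -0.04 and -0.27 and the 57 without -0.08 and -0.19. The 4 with CREB letters had medians of 0.03 and -0.04 and the 63 without -0.08 and -0.19. The transcript of Nrf1 itself stood at 0.16 in MR20 (adjusted p = 0.068) and fell by 0.23 in DR500 (adjusted p = 0.0101), and that of Gabpa, the DNA-binding part of GABP, passed in neither (-0.15 and -0.01).

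Complex I takes electrons from NADH through flavin and iron-sulphur clusters in its matrix arm, and pumps protons in its membrane arm. In MR20, 10 of its 34 subunits fell and 4 rose, and in DR500, 18 fell and 2 rose. The 15 subunits of the matrix arm split into 5 lower and 2 higher in MR20 and 8 and 2 in DR500. Those of the membrane arm (19) split into 5 and 2 in MR20 and 10 and 0 in DR500, where without adjustment 2 had a p under 0.05 as higher. The share of the complex that fell was 29.4% in MR20, near the 28.1% of the brighter genes, and 52.9% in DR500, beside 35.3%. Medians over the complex were -0.03 and -0.22.

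Ndufs8, a core subunit of the matrix arm that carries iron-sulphur clusters, was at 12.10, 12.12 and 12.19 on the 4T1 arrays. It was at 11.44, 11.42 and 11.46 in MR20 and at 11.36, 11.26 and 11.26 in DR500. Neither line overlapped 4T1. The level was 1.62-fold lower in MR20 (log2 difference -0.70 ± 0.06 SE, adjusted p = 7.4e-06) and 1.79-fold lower in DR500 (-0.84 ± 0.06, adjusted p = 8.3e-07). The 2 lines did not differ past the threshold (-0.15, adjusted p = 0.0554).

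Ndufb8, an accessory subunit of the membrane arm, was at 10.60, 10.76 and 10.87 in 4T1, 10.30, 10.38 and 10.34 in MR20 and 9.80, 10.01 and 9.89 in DR500. The 3 lines formed 3 separate steps. The difference from 4T1 was -0.40 ± 0.08 in MR20 (adjusted p = 0.00286) and -0.84 ± 0.08 in DR500 (adjusted p = 1.24e-05), and DR500 was lower than MR20 by -0.44 (adjusted p = 0.00117). Ndufb9, another accessory subunit of this arm, had the opposite order of the selected lines. It was at 12.99, 13.07 and 13.13 in 4T1, 12.30, 12.37 and 12.31 in MR20 and 12.80, 12.88 and 12.78 in DR500. MR20 was thus the lowest line (-0.74 ± 0.06 against 4T1, adjusted p = 9.11e-06), with DR500 in between (-0.24 ± 0.06, adjusted p = 0.00741) and above MR20 by 0.49 (adjusted p = 7.16e-05).

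Of the subunits that bind NADH or carry its electrons through iron-sulphur clusters, Ndufv1, Ndufs1 and Ndufs7 fell in both lines, as did Ndufs8 above. Ndufv1, which binds NADH and the flavin, differed by -0.39 in MR20 and -0.47 in DR500, and Ndufs1, the largest iron-sulphur subunit, by -0.42 and -0.38. Ndufs7, which holds the last cluster before ubiquinone, differed by -0.15 and -0.44. Their neighbour Ndufv2 passed in neither line (-0.13 and -0.04). Ndufa7, an accessory subunit of the matrix arm, fell by 0.68 in MR20 and by 0.39 in DR500.

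Ndufv3 and Ndufs3 were the complex I subunits that rose in DR500. Ndufv3, a small accessory subunit beside the flavin site, was at 9.04, 9.01 and 9.0 in 4T1, 8.73, 8.81 and 8.97 in MR20 and 9.68, 9.54 and 9.45 in DR500. It rose by 0.54 ± 0.08 in DR500 (adjusted p = 0.000248), the largest rise of any subunit in either line, while the MR20 value of -0.18 did not pass (adjusted p = 0.107). The direct difference between the lines was 0.72 (adjusted p = 3.1e-05). Ndufs3, a core subunit of the matrix arm, rose by 0.31 ± 0.05 in DR500 (adjusted p = 0.000738) and stood at 0.10 in MR20 (adjusted p = 0.23).

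Ndufa12, an accessory subunit of the matrix arm, moved in opposite directions. It was at 8.97, 8.97 and 9.07 in 4T1, 9.23, 9.31 and 9.40 in MR20 and 8.51, 8.88 and 8.65 in DR500. Every MR20 array lay above and every DR500 array below the range of 4T1. It rose by 0.31 ± 0.09 in MR20 (adjusted p = 0.0246) and fell by 0.32 ± 0.09 in DR500 (adjusted p = 0.0164). The rise in MR20 did not pass when 4T1 replicate 1 or 2 or MR20 replicate 2 or 3 was left out (adjusted p 0.0653 to 0.0918), nor with all probe sets in the adjustment (0.0528). The direct difference of -0.64 passed (adjusted p = 0.000255).

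Ndufa1 and Ndufs4 also separated the lines. Ndufa1, a small membrane arm subunit, was at 8.96, 9.05 and 9.14 in 4T1, 9.17, 9.17 and 9.10 in MR20 and 8.26, 8.55 and 8.46 in DR500. Only DR500 stood apart (-0.63 ± 0.08 against 4T1, adjusted p = 0.000111, and -0.73 against MR20). Ndufs4, an accessory subunit of the matrix arm needed for a stable complex, fell by 0.41 in DR500 (adjusted p = 0.0227), stood at 0.29 in MR20 (adjusted p = 0.118) and differed by -0.70 between the lines (adjusted p = 0.00108). Of the 4 that rose in MR20, Ndufa5 was at 0.25 (adjusted p = 0.017), a value that did not pass without 4T1 replicate 1 or 2 or MR20 replicate 3 (adjusted p 0.0628 to 0.0709). Ndufa8 rose by 0.24 and Ndufab1, the acyl carrier protein of complex I, by 0.21.

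Complex II, succinate dehydrogenase, has 4 subunits and no mitochondrially encoded part. Sdha, the flavoprotein that oxidises succinate, was the one subunit gene of the whole chain that rose in both lines. It was at 10.80, 10.77 and 10.71 in 4T1, 11.08, 11.04 and 11.05 in MR20 and 11.18, 11.08 and 11.18 in DR500. All 6 arrays of the selected lines lay above 4T1. The rise was 1.23-fold in MR20 (0.29 ± 0.06, adjusted p = 0.00207) and 1.31-fold in DR500 (0.39 ± 0.06, adjusted p = 0.00022).

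None of the other subunits of complex II rose in both lines. Sdhb, the iron-sulphur subunit, stood at -0.13 in MR20 (adjusted p = 0.209) and -0.18 in DR500 (adjusted p = 0.0576). Sdhd, a membrane anchor that helps to bind ubiquinone, was at 11.36, 11.34 and 11.52 in 4T1, 11.04, 11.14 and 11.04 in MR20 and 11.25, 11.25 and 11.11 in DR500. It fell by 0.33 ± 0.07 in MR20 (adjusted p = 0.00378) and by 0.21 ± 0.07 in DR500 (adjusted p = 0.0363). The latter did not pass without 4T1 replicate 1, 4T1 replicate 3, MR20 replicate 3 or DR500 replicate 3 (adjusted p 0.051 to 0.146), with arrays centred on their medians (0.108), with only the compared lines in the fit (0.0641), with all probe sets (0.0558) or with the replicate number as a block (0.067).

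Sdhc, the other membrane anchor, was at 11.18, 11.15 and 11.13 in 4T1, 10.93, 10.96 and 10.94 in MR20 and 11.47, 11.32 and 11.28 in DR500. The 3 lines did not overlap: MR20 lay below 4T1 (-0.21 ± 0.06, adjusted p = 0.0231) and DR500 above it (0.21 ± 0.06, adjusted p = 0.0195). Between the selected lines the difference was 0.42 (adjusted p = 0.000276). The difference of MR20 from 4T1 did not pass without 4T1 replicate 1 or 2 or any of the MR20 replicates (adjusted p 0.0541 to 0.0777) or with centred arrays (0.0581), and that of DR500 did not without 4T1 replicate 2 or 3 (0.0557 and 0.0667).

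**Figure D3:**
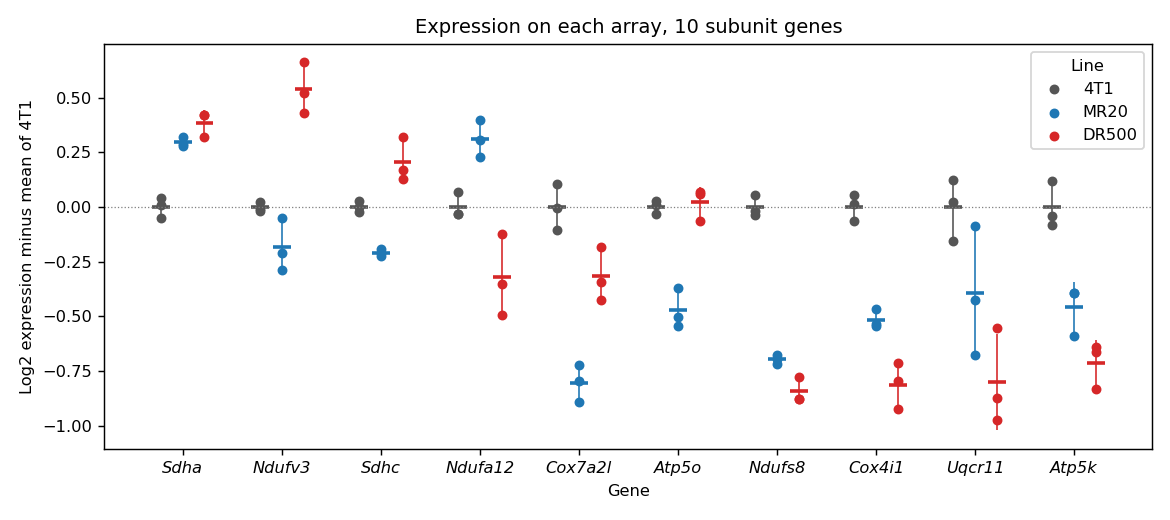
Log2 expression of 10 subunit genes on each array, with the mean of the 3 arrays of 4T1 subtracted (vertical axis), for 4T1 (grey), MR20 (blue) and DR500 (red). Points are arrays, horizontal bars means and vertical bars SDs (n = 3); Sdha lies above 4T1 in both lines, Sdhc and Ndufa12 lie on opposite sides of 4T1, and Ndufs8, Cox4i1 and Atp5k lie below it in both.

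Complex III had 2 of 9 subunits lower and 1 higher in MR20 and 5 lower and 0 higher in DR500 (0 higher also without adjustment). The shares that fell were 22.2% and 55.6%, beside 28.1% and 35.3% of the brighter genes. Of its catalytic proteins, cytochrome c1 (Cyc1) stood at 0.08 and -0.06 and the Rieske iron-sulphur protein (Uqcrfs1) at 0.18 and -0.09. Neither passed against 4T1 in either line, but Uqcrfs1 differed by -0.27 between DR500 and MR20 (adjusted p = 0.0056). Of the core proteins, Uqcrc2 fell by 0.29 in DR500 and was at 0.02 in MR20, while Uqcrc1 was at -0.04 and -0.08. All others of the complex that passed against 4T1 were small subunits.

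Uqcr11, a small subunit at the edge of the complex, had the largest fall of complex III in DR500. It was at 10.63, 10.81 and 10.91 in 4T1, 10.36, 10.70 and 10.11 in MR20 and 9.91, 10.23 and 9.81 in DR500. MR20 overlapped both other lines, with a difference from 4T1 of -0.40 that did not pass (adjusted p = 0.0722). DR500 lay wholly below 4T1, by -0.80 ± 0.15 (adjusted p = 0.00151). The 2 probe sets of this gene differed by up to 0.23 in a comparison, the widest gap among the 17 subunits with several probe sets.

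Uqcrh, the hinge protein that helps cytochrome c to dock, was at 12.22, 12.28 and 12.31 in 4T1, 11.73, 11.76 and 11.71 in MR20 and 12.18, 12.13 and 11.98 in DR500. MR20 stood well below the others (-0.54 ± 0.06 against 4T1, adjusted p = 0.000105), and DR500 was close to 4T1 (-0.17, adjusted p = 0.0494). Uqcr10, a single-span membrane subunit, fell in both lines, by 0.31 and 0.47. Uqcrb, which takes part in ubiquinone binding, rose by 0.26 in MR20 (adjusted p = 0.0133), but not past the threshold without 4T1 replicate 1 (0.0533) or 2 (0.0519). It was at -0.12 in DR500, which was lower than MR20 by -0.38 (adjusted p = 0.00111). Uqcrq, a small subunit that also lies near the quinone site, fell by 0.34 in DR500 and differed by -0.45 between the lines.

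Complex IV holds 8 isoforms known from particular tissues (heart and muscle, lung, testis or hypoxic cells), and 11 subunits used in most cells. Of those 11, 5 fell and 0 rose in MR20 (0 also without adjustment), and 9 fell and 0 rose in DR500 (0 without adjustment), with medians of -0.18 and -0.27. These are 45.5% and 81.8% of the 11, beside 28.1% and 35.3% of the brighter genes. Cox6b1 and Cox6c were the pair that passed in neither line. Cox4i1, the largest nuclear-encoded subunit of the complex, was at 11.77, 11.85 and 11.89 in 4T1, 11.29, 11.37 and 11.30 in MR20 and 11.04, 11.12 and 10.91 in DR500. The lines lay in 3 separate steps, at -0.52 ± 0.07 in MR20 (adjusted p = 0.000227) and -0.81 ± 0.07 in DR500 (adjusted p = 5.4e-06), and DR500 was below MR20 by -0.30 (adjusted p = 0.00542).

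Cox7a2l, which joins complexes III and IV in supercomplexes, had the lowest difference of any subunit in MR20. It was at 9.85, 10.06 and 9.95 in 4T1, 9.06, 9.23 and 9.16 in MR20 and 9.61, 9.77 and 9.53 in DR500. MR20 was 1.74-fold lower than 4T1 (-0.80 ± 0.08, adjusted p = 4.12e-05) and DR500 1.24-fold lower (-0.31 ± 0.08, adjusted p = 0.0102). DR500 exceeded MR20 by 0.49 (adjusted p = 0.000704). These values are from the brighter probe set of Cox7a2l. Its other probe set differed from 4T1 by -0.97 in MR20 and -0.5 in DR500, and by 0.47 between the selected lines. Cox6a1, whose promoter is shown above, differed by -0.36 in MR20 and -0.46 in DR500. Cox7b, needed for assembly of the complex, fell by 0.37 in DR500 alone and was at -0.01 in MR20, and Ndufa4 fell by 0.36 in DR500 and was at -0.15 in MR20.

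Among the 8 tissue-restricted isoforms, Cox6b2, Cox7b2, Cox8b, Cox8c and Ndufa4l2 stayed below the brightness level of 6.74 on all arrays, whereas Cox4i2, Cox6a2 and Cox7a1 exceeded it on some or all arrays. None passed in MR20 (0 also without adjustment). In DR500, Cox4i2, the lung and hypoxia isoform, passed as higher by 0.26 (adjusted p = 0.0114), Cox6b2, the testis isoform, by 0.33 (adjusted p = 0.0161) and Cox7a1, the heart and muscle isoform, by 0.33 (adjusted p = 0.0231). Each of these was lost without a single array: Cox4i2 without 4T1 replicate 3 (adjusted p = 0.0501), Cox6b2 without the same array (0.0649), and Cox7a1 without 4T1 replicate 1 or 2 or DR500 replicate 2 (0.0867 to 0.0891). On the arrays Cox7a1 was at 7.20, 7.20 and 7.52 in 4T1, 7.04, 7.20 and 7.04 in MR20 and 7.58, 7.79 and 7.55 in DR500. Of 6 adipocyte and muscle markers, Acta1 and Ckm were also higher in DR500 (0.64 and 0.22), 4 did not pass and 0 were lower. The share higher was 33.3%, beside 20.2% of all genes. Mb and Acta1 were higher in MR20 (0.52 and 0.18), where no restricted isoform passed. The part of these markers in the isoform differences was not tested. Cox6a2, the muscle partner of Cox6a1, stood at 0.22 in DR500 (adjusted p = 0.17). Cox7b2, Cox8b, Cox8c and Ndufa4l2 did not pass in any comparison.

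Complex V, the ATP synthase, had 7 of 17 subunits lower in MR20 and 11 lower in DR500, and none higher in either (0 and 0 at an unadjusted p under 0.05). The shares that fell were 41.2% and 64.7%, beside 28.1% and 35.3% of the brighter genes. In DR500 the largest falls were in subunits of the membrane part that hold the enzyme in dimers. Atp5k, subunit e, was at 9.16, 9.12 and 9.32 in 4T1, 8.61, 8.81 and 8.81 in MR20 and 8.54, 8.56 and 8.37 in DR500. The lines did not overlap, with differences from 4T1 of -0.46 ± 0.08 (adjusted p = 0.00169) and -0.71 ± 0.08 (adjusted p = 5.73e-05). Atp5l, subunit g, which pairs with subunit e, fell by 0.46 in MR20 and by 0.52 in DR500, and Atp5j2, subunit f, by 0.33 and 0.44. Atp5md, a further subunit of the dimer interface, fell by 0.47 in DR500 (adjusted p = 0.000379) and was at -0.03 in MR20.

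Some subunits of the catalytic head differed between the lines. Atp5a1, its alpha subunit, was at 12.37, 12.32 and 12.26 in 4T1, 12.35, 12.32 and 12.32 in MR20 and 12.01, 12.04 and 11.97 in DR500. It fell in DR500 alone (-0.31 ± 0.05, adjusted p = 0.000842), and the direct difference was -0.32 (adjusted p = 0.000628). Atp5b, the beta subunit that binds the nucleotide to be phosphorylated, was at -0.23 in DR500 (adjusted p = 0.00574) and -0.01 in MR20. The delta subunit Atp5d also differed directly (-0.20, adjusted p = 0.00792). The gamma subunit Atp5c1 passed in neither line (0.06 in DR500 and -0.02 in MR20) and did not differ directly (0.08, adjusted p = 0.274). The epsilon subunit Atp5e fell by 0.42 in MR20 (adjusted p = 0.0108) and was at -0.19 in DR500, with a direct difference of 0.24 that did not pass (adjusted p = 0.102).

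Atp5o, which joins the peripheral stalk to the head, ran the other way from Atp5a1 and Atp5b. It was at 11.45, 11.49 and 11.51 in 4T1, 10.94, 11.11 and 10.98 in MR20 and 11.55, 11.54 and 11.42 in DR500. MR20 lay below both others (-0.47 ± 0.06 against 4T1, adjusted p = 0.00027), and DR500 overlapped 4T1 (0.02, adjusted p = 0.852), so that DR500 exceeded MR20 by 0.49 (adjusted p = 0.000131). Of the genes of the membrane ring, Atp5g1 fell by 0.19 in DR500, while Atp5g2 and Atp5g3 passed in neither line.

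Lists of related genes were counted in the same way. Of the brighter genes, 28.1% fell and 25.3% rose in MR20, and 35.3% fell and 28.9% rose in DR500. In MR20 the shares that fell were near this for assembly factors of complexes II (25%) and IV (28.6%). They were also near it for electron carriers and entry (31.6%) and for genes that handle mitochondrial DNA (31.2%). In DR500 the shares that fell were 100% and 42.9% for assembly factors of complexes II and IV. They were 52.6% for electron carriers and entry and 62.5% for the genes that handle mitochondrial DNA, beside 35.3% of the brighter genes. For biogenesis regulators the shares that fell were lower, at 11.8% in MR20 and 17.6% in DR500. Assembly factors of complex I fell in 7 of 15 cases and rose in 2 in MR20, and fell in 8 and rose in 1 in DR500. The one that rose in both was Ndufaf3, which acts early in building the matrix arm (0.55 in MR20 and 1.12 in DR500). Ndufaf2, an assembly factor related in sequence to Ndufa12, rose by 0.29 in MR20 and fell by 0.34 in DR500 (adjusted p = 0.000404). It differed by -0.63 between DR500 and MR20. All 4 assembly factors of complex II fell in DR500 and 1 in MR20. Those of complex III fell in 3 of 6 and 4 of 6 cases (0 and 1 higher), those of complex IV in 6 and 9 of 21 (5 and 2 higher), and those of complex V in 3 and 3 of 6 (1 and 0 higher). The 0 higher for complexes III and V were 0 without adjustment too. Of 3 other supercomplex factors, Higd2a and Stoml2 fell in MR20 (-0.32 and -0.22) and Stoml2 in DR500 (-0.27).

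Genes that feed electrons into the chain or carry them were mixed, with 6 higher and 6 lower of 19 in MR20 and 5 higher and 10 lower in DR500. In MR20 31.6% rose and 31.6% fell, beside 25.3% and 28.1% of the brighter genes. In DR500 26.3% rose and 52.6% fell, beside 28.9% and 35.3%. Sqor, which passes electrons from hydrogen sulphide to ubiquinone, rose by 0.69 in MR20 and 2.43 in DR500. Coq2 and Pdss2, enzymes of ubiquinone synthesis, fell by 1.05 and 0.90 in DR500. Cytochrome c (Cycs) rose by 0.36 in MR20 (adjusted p = 0.0133) and was at 0.13 in DR500. Of 23 citric acid cycle and pyruvate dehydrogenase genes, 4 rose and 9 fell in MR20 (17.4% and 39.1%, beside 25.3% and 28.1% of the brighter genes). In DR500 4 rose and 11 fell (17.4% and 47.8%, beside 28.9% and 35.3%). There the pyruvate dehydrogenase kinase Pdk2 was up by 1.41 and the phosphatase Pdp2 down (-1.24).

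Genes that replicate, transcribe and process mitochondrial DNA fell in 5 of 16 cases in MR20 (2 higher) and 10 of 16 in DR500 (0 higher, and 0 also without adjustment). Tfb1m, which methylates mitochondrial ribosomal RNA, fell by 1.46 and 1.28. Tefm, the elongation factor of mitochondrial transcription, fell by 1.10 in DR500, and Tfam, which packages mitochondrial DNA and starts its transcription, was at -0.97 in DR500 and -0.07 in MR20. The mitochondrially encoded genes measured here were COX2 and ND3, and neither passed against 4T1. COX2 was lower in DR500 than in MR20 (-0.27, adjusted p = 0.0382). Among 17 regulators of mitochondrial biogenesis, 3 rose and 2 fell in MR20 and 4 rose and 3 fell in DR500. The co-repressor Nrip1 rose in both (0.65 and 1.11). The coactivator Ppargc1b fell by 0.81 in MR20 and was at 0.01 in DR500, Ppargc1a fell by 0.25 in DR500 (-0.18 in MR20, adjusted p = 0.1), and the related Pprc1 fell by 0.70 in DR500.

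The lists that follow held more lower than higher genes in both lines. In MR20 the shares that fell were 33.8% for the mitochondrial ribosome, 44% for import, 41.7% for chaperones and proteases and 45.9% for the cytosolic ribosome. In DR500 they were 58.4%, 52%, 66.7% and 70.5% in the same order. Beside them stood 28.1% and 35.3% of the brighter genes. Mitochondrial ribosomal proteins fell in 26 and rose in 14 of 77 cases in MR20 and fell in 45 and rose in 6 in DR500, with medians of -0.11 and -0.28. Mitochondrial import genes fell in 11 and 13 of 25 cases (3 higher in each line), and mitochondrial chaperones and proteases in 5 and 8 of 12 (1 higher in each). Proteins of the cytosolic ribosome, which lie outside the mitochondrion, fell in 28 of 61 cases in MR20 and 43 of 61 in DR500, with none higher in either (0 also without adjustment) and medians of -0.16 and -0.30.

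**Figure D4:**
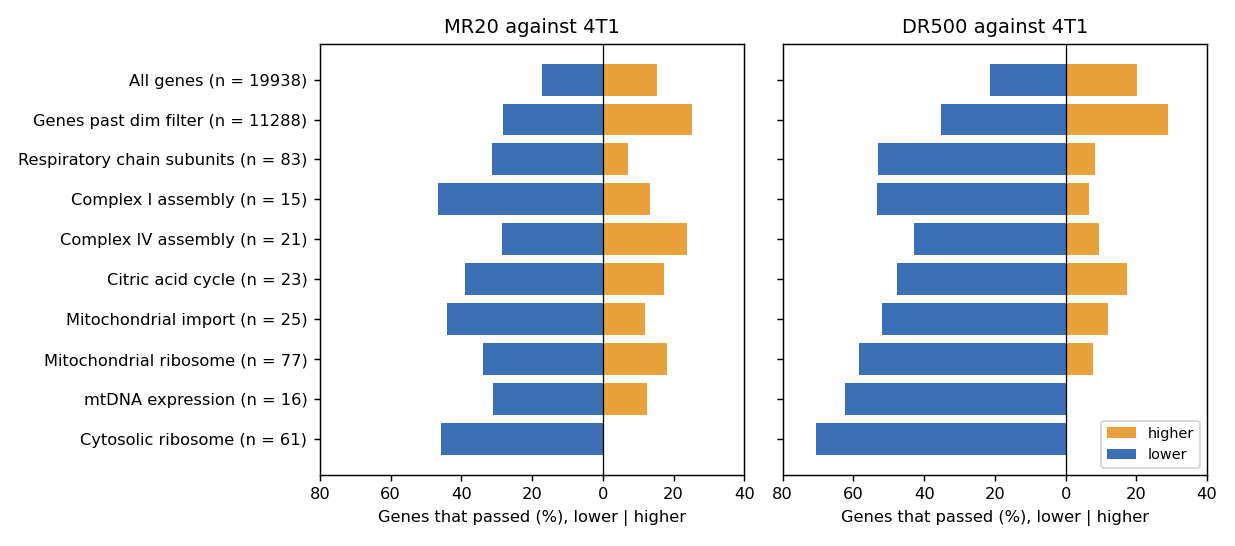
Share of genes (horizontal axis, percent) that passed as lower (blue, to the left) or higher (orange, to the right) than 4T1 in MR20 and in DR500, for all genes, the brighter genes, the respiratory chain subunits and 7 related gene lists. In DR500 53% of the subunits were lower and 8.43% higher, between the values of the complex IV assembly factors (42.9% lower) and of the cytosolic ribosome (70.5% lower).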

How the data were processed

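RNA from 9 cultures was hybridised to Affymetrix whole-transcript mouse arrays. The deposited table holds log2 expression values, which the authors made with RMA (the affy package, per the labels) and normalized between arrays; its scale was checked on the values. Of 35556 probe sets, 21789 had 1 gene symbol in the platform annotation, 1621 had several and were not used, and 12146 had none listed. Symbols were updated by Entrez number to GRCm38.p6 where they matched (21698), which renamed no member, and the brightest probe set stood for each gene (19938 genes). One limma fit (version 3.58.1, R 4.3.3) held all 9 arrays with a mean per line, with empirical Bayes moderation and Benjamini-Hochberg adjustment over all genes. Data were also simulated for 19938 genes, of which 19738 were unchanged. In MR20 the fit found 7 of 50 genes changed 1.2-fold, 28 of 50 changed 1.35-fold and 46 of 50 changed 2-fold. In DR500 it found 6, 31 and 48. Far fewer genes were changed there than passed in the real data, which makes the adjustment stricter. These numbers therefore do not give the sensitivity of the real fit. No set test was run. The number of arrays limits the precision. An exact permutation test of 3 against 3 arrays cannot go below p = 0.1 and was not used.

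The members and gene lists were chosen with earlier results of these data known. Members were named if they had the 2 largest rises or falls of a complex in a comparison, passed beyond 2-fold, belonged to complex II or were tissue-restricted; list genes if they had the 2 largest rises or falls of a list in a comparison, or were Ppargc1a, Ppargc1b, Nrf1, Gabpa, Tfam or Cycs. Other members named above were picked for their role. Processed pseudogenes, which many subunit genes have, could share probes; this was not tested.

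Alternatives were: only the compared lines in the fit, dim genes left out, another normalization or centring, the mean of a gene's probe sets, all probe sets in the adjustment, a trended robust prior, the annotation's own symbols (the same 83 members), the replicate number as a block, and each array left out in turn. Promoter windows came from RefSeq.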

Additional observations from a re-analysis of the deposited data

Results flagged for a closer look

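In a pair of subunits the selected lines moved in opposite directions from 4T1, each past the threshold, and differed from each other in the same limma fit. Ndufa12 was higher in MR20 and lower in DR500, with a DR500 minus MR20 difference of -0.64. Sdhc was lower in MR20 and higher in DR500, with a difference of 0.42. For both genes all 3 arrays of MR20 lay on one side of the range of 4T1 and all 3 arrays of DR500 on the other. Groups of 3 arrays were too small to look for single outlying arrays.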

How the results depend on the processing

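Of the subunit counts, the 7 higher in DR500 than in 4T1 became 13 with quantile normalization repeated and 12 with arrays centred on their medians, and all other counts stayed within 1.5 times under the settings that kept all arrays. Leaving out 1 array gave 2 to 7 subunits higher and 23 to 26 lower in MR20, 5 to 10 higher and 32 to 41 lower in DR500, and 11 to 15 higher and 23 to 32 lower in DR500 than in MR20. The 15 medians per complex stayed within 1 SD in 246 of 255 cases. The exceptions were complex II with centred arrays (-0.13 in MR20, 0.07 in DR500) and, in DR500 against 4T1, with an array left out (-0.04 to 0.05), complex III in DR500 (-0.10 with repeated normalization, -0.12 centred), complex IV in DR500 (-0.04 with repeated normalization), and, for DR500 against MR20 with repeated normalization, complexes II (0.14) and III (-0.21). Of 1175 values of named subunits, 1106 kept their direction and side of the threshold, 34 no longer passed, 20 newly passed, and 15 changed sign, all of them tissue-restricted isoforms that had not passed. Against 4T1 in MR20, Cox6b2 turned to 0.01 and Ndufa4l2 to 0.02 with repeated normalization, and both to 0.02 when centred. With an array left out, values against 4T1 in MR20 spanned -0.07 to 0.03 for Cox6b2, -0.07 to 0.03 for Ndufa4l2, -0.0016 to 0.09 for Cox8b and -0.19 to 0.06 for Cox8c. In DR500 they spanned -0.03 to 0.09 for Cox7b2 and -0.10 to 0.16 for Cox8c, and between DR500 and MR20 -0.03 to 0.34 for Cox8b and -0.01 to 0.15 for Cox8c. The cause was not tested.

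The replicate numbers did not pair the arrays: correlations of same-numbered deviations were -0.08, 0.05 and -0.24 for MR20 with 4T1, 0.24, -0.03 and 0.33 for DR500 with 4T1, and -0.31, 0.15 and -0.29 for DR500 with MR20. With the replicate number as a block, 6 subunits were higher and 26 lower in MR20, 7 and 39 in DR500, and 13 and 30 in DR500 against MR20.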
